A study of Mus musculus with 12 samples.

Results

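The regions described here were stretches of open chromatin that young deep-layer and young upper-layer projection neurons of mouse neocortex shared, and that neither population showed later. They were chosen from ATAC-seq peak lists, which mark DNA that a transposase can reach. Overlapping or touching peaks of the 12 lists were joined into regions, and a list with a peak on at least 1 bp of a region counted as open there. A closing region was open in both deep-layer E13.5 lists and both upper-layer E17.5 lists. It was closed in both deep-layer E18.5 lists, both upper-layer P1 lists and both upper-layer P5 lists. This gave 10694 of 498516 regions, or 2.15%. The state in these 10 lists chose the regions and is therefore no finding, while the 2 deep-layer E16.5 lists were left free.

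All cells came from the neocortex of CD1 mice and were sorted for GFP. Deep-layer neurons came from mice with the Golli-GFP transgene, at E13.5, then E16.5, then E18.5. Upper-layer neurons had received a plasmid with GFP behind a Cdk5r promoter by electroporation in utero at E15.5, and were taken at E17.5 and, after birth, at P1 and at P5. The 6 groups had 2 replicates each, pools of 2 to 8 embryos per the labels' protocols, which do not say whether replicates came from separate litters. The populations were therefore marked in different ways: the transgene marks cells by where it is active, while the plasmid marks cells reached at the time of electroporation. A region missing from a list can be open in fewer of the sorted cells or less open in each, and these cannot be told apart. No mm9 genome sequence or annotation was used, so the nearest genes, motifs, sequences and marker genes of the sorted cells are not analysed here.

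Projection neurons of the neocortex are born from progenitors beside the ventricle, deep-layer neurons first and upper-layer neurons later. The new neurons migrate to their layer, extend axons and then form synapses. Enhancers and promoters are open while transcription factors and chromatin remodellers keep nucleosomes off them. An element used by progenitors or newborn neurons can become inaccessible as a neuron matures, and other elements open as synapses form. E13.5 and E17.5 are the youngest stages collected of the respective populations.

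The lists held 96452 to 164508 peaks. They gave no score, so the number of peaks stands for depth and the width of a peak is the single measure of its size. E13.5 lists held 141942 ± 16900 peaks (SD, n = 2) and E17.5 lists 143868 ± 29189 (SD, n = 2). E18.5 lists held 110146 ± 19366, P1 lists 117598 ± 3688 and P5 lists 119310 ± 17010 (SD, n = 2 each). The early lists were thus longer on average than the late lists, which moves with the direction of the rule. With each list cut to the same number of its widest peaks, 6206 regions met the rule, and with lists thinned at random to that length 2718 did. Random thinning drops peaks of each list separately, so it also lowers the agreement between lists. The peak names of both E17.5 lists carry the same library name, so these lists may not be independent. Without E17.5 replicate 1 the rule gave 11606 regions, and without replicate 2 it gave 13696.

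The closing regions were short. Their median length was 671 bp, with quartiles of 518 and 888 bp and a range of 257 to 2822 bp, against a median of 992 bp in the 69227 regions open in all 4 early lists. These 69227 are called early shared regions below, and the closing regions were 15.4% of them. In each early list, 95.3% to 98.6% of the closing regions held a single peak. Together the closing regions covered 7.90 Mb.

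The regions just outside the rule showed which lists drew its border. Another 8903 early shared regions were open in exactly 1 late list. Of these, 6433 were open in deep-layer E18.5 replicate 2 alone, while each other late list accounted for 401 to 693. Their peaks in E18.5 replicate 2 had a median width of 363 bp. A further 10442 regions were closed in all late lists and in 1 early list, most often E13.5 replicate 1 (4191 regions). The median early peak width was 456.5 bp in the closing regions and 522 bp in those open in 1 late list. E18.5 replicate 2 therefore decided more of the count than any other list: without it, 17127 regions met the rule.

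The rule was then applied to 1 replicate per group, and the regions it chose were read in the other, held-out replicate. The open state of the held-out replicate was not used for the choice. Its peaks had nevertheless helped to set the borders of all regions, since regions were joined from the peaks of every list. The part of these shared borders in the shares below was not tested. With the lower-numbered replicates, 30072 regions were chosen. In the held-out lists 80.7% of them were open at E13.5, against 28.6% of all regions, and 77.5% were open at E17.5, against 23.8% of all regions. At P1 7.66% were open, against 22.8% of all regions, and at P5 5.93% against 20.3%. The held-out E18.5 list, replicate 2, was the exception among the late lists: 34.0% of the chosen regions were open there, above the 23.6% of all regions.

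With the higher-numbered replicates, 18607 regions were chosen, and the held-out E18.5 list was replicate 1. There 4.28% were open, against 17.9% of all regions. The other held-out late lists were as low, with 4.63% open at P1 (21.9% of all regions) and 4.81% at P5 (25.1% of all regions). The early lists were open in 71.0% (E13.5, against 24.4% of all regions) and 91.2% (E17.5, against 32.2%). The mean of the early lists exceeded that of the late lists by 63.2 points in the first choice and by 76.5 points in the second, against 3.98 and 6.67 points over all regions. In both, every held-out early list was above every held-out late list (p = 0.1, exact permutation test, one-sided, the smallest p that 2 lists against 3 allow). Replicates that resemble each other give this order for regions chosen in this way. The order and the p-value therefore describe agreement between replicates and are no test of closing. Low shares at P1 and P5 were thus seen again, in both directions, in lists whose open state was not used for the choice. In deep-layer neurons a low share was seen again in E18.5 replicate 1 only. In E18.5 replicate 2, 34.0% of the chosen regions were open, against 23.6% of all regions. The peak names of both E17.5 lists carry the same library name, so the E17.5 shares and the p-value may not rest on independent lists.

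**Figure D1:**
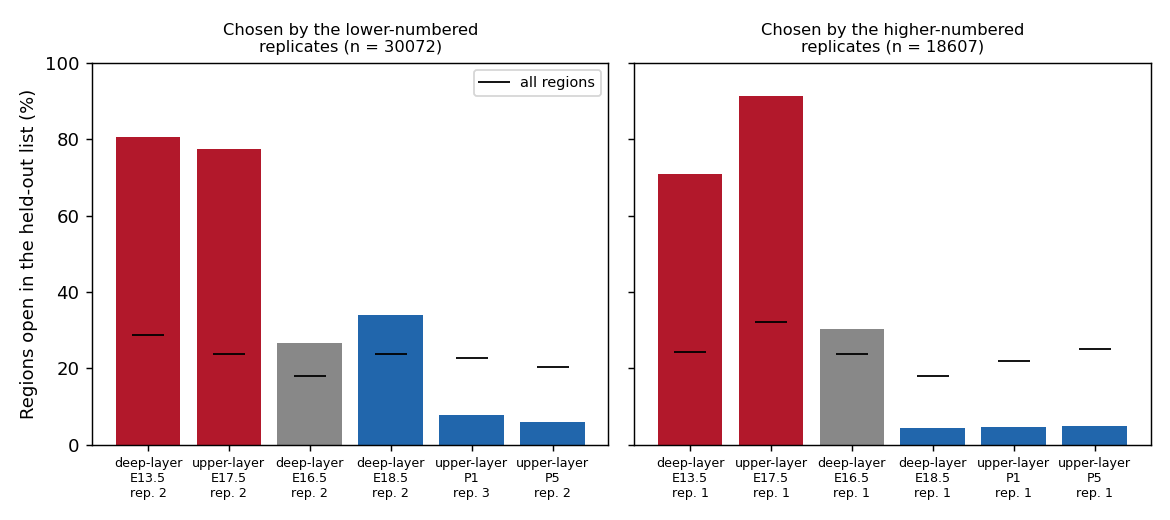
Share of regions open (y axis, percent) in each held-out list (x axis), for regions chosen by the rule from the other replicate of each group; red bars are the early stages, grey bars E16.5, blue bars the late stages, and black dashes the share among all regions. Early lists stand between 71.0% and 91.2%, and the late lists lie below their dashes except E18.5 replicate 2 at 34.0%.

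The E16.5 lists, the stage the rule left free, fall between E13.5 and E18.5 in deep-layer neurons. E16.5 replicate 1 was open in 3856 of the 10694 closing regions, or 36.1% (95% Wilson interval 35.2% to 37.0%), where 23.7% of all regions were open. E16.5 replicate 2 was open in 1788, or 16.7% (16.02% to 17.4%), near the 18.1% of all regions. The intervals cover counting error alone, and the spread between the lists was far larger than either: the mean was 26.4% ± 13.7 (SD, n = 2). By count, 6228 closing regions (58.2%) were closed in both E16.5 lists, against 72.5% of all regions. Of the closing regions 3288 (30.7%) were open in 1, against 13.2% of all regions, and 1178 (11.0%) were open in both, against 14.3%. Of the 3288, 2678 were open in replicate 1 alone and 610 in replicate 2 alone. Replicate 1 was also the longer list, with 126828 peaks against 99225. The shares in replicates 1 and 2 were 35.4% and 16.4% for regions chosen without E17.5 replicate 1, and 34.3% and 14.95% without E17.5 replicate 2. They were 52.0% and 30.9% for the 17127 regions chosen without E18.5 replicate 2.

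The 58.2% of closing regions missing from both E16.5 lists compare with 72.5% of all regions, many of which were open in few lists. The share was 42.3% for the regions chosen without E18.5 replicate 2, and 57.0% to 64.1% without each of the other lists of the rule. A pair of other sets places these shares. The first held the 10460 early shared regions that were still open in both E18.5 lists and were closed in all P1 and P5 lists. These kept regions were open in 96.0% and 87.2% of cases in E16.5 replicates 1 and 2. The second held the 8848 regions with peaks in both E13.5 lists, in neither E18.5 list and in no upper-layer list. These were open in 20.8% and 5.63% in the same lists. In each E16.5 list the closing regions lay between these sets, far below the kept regions and above the regions closing in deep-layer neurons alone. The sets also differ in how many lists had to be open, with most for the kept regions, which had to be open at E18.5 too. The part of these definitions in the order of the sets was not tested. Both E16.5 lists gave this order, and no test was made, since an exact sign-flip test over 2 lists cannot give a two-sided p under 0.5.

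**Figure D2:**
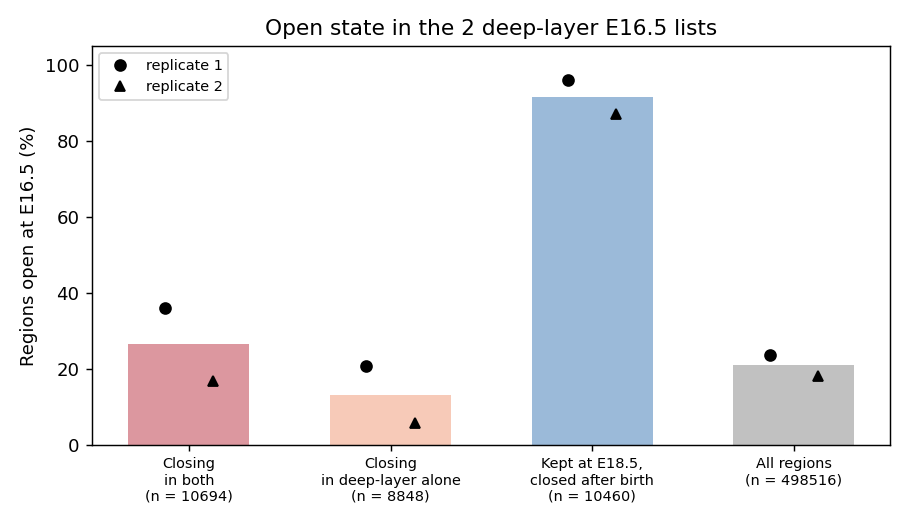
Share of regions open at E16.5 (y axis, percent) in 4 sets of regions (x axis); bars are the mean of the 2 E16.5 lists, circles replicate 1 and triangles replicate 2. The closing regions stand at 36.1% and 16.7%, the kept regions at 96.0% and 87.2%.

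The sets differed in peak size, so the shares were also read within bins of the mean peak width at E13.5. Among closing regions with E13.5 peaks under 300 bp, 22.0% and 10.1% were open in E16.5 replicates 1 and 2. Among those with peaks of 700 bp and over, 55.4% and 28.3% were open. The wider the early peak, the more closing regions still had a peak at E16.5, in both lists and at each step between bins. Kept regions with E13.5 peaks under 300 bp were open in 88.0% and 71.6%, above the closing regions of every width. Regions closing in deep-layer neurons alone were below the closing regions of the same width in each bin and each list, for example at 18.8% and 5.12% for widths of 300 bp to under 400 bp, where the closing regions stood at 30.6% and 13.04%. The differences between the sets were thus present at matched width, where the sets still differed in the lists that had to be open.

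**Figure D3:**
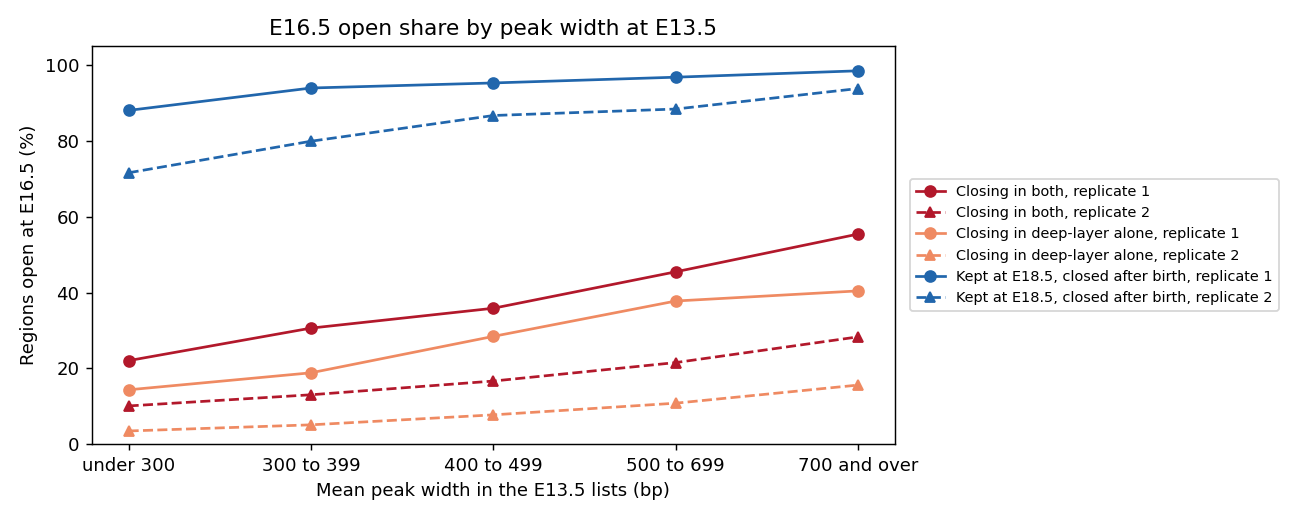
Share of regions open at E16.5 (y axis, percent) by mean peak width in the E13.5 lists (x axis, bp), for closing regions (red), regions closing in deep-layer neurons alone (orange) and kept regions (blue); solid lines with circles are E16.5 replicate 1, dashed lines with triangles replicate 2. The blue lines lie above the red ones, and the red above the orange, in every bin of the same list.

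Closing regions that still had an E16.5 peak had a smaller one. In the 3856 regions open in E16.5 replicate 1 the median peak width was 325 bp, against 446 bp and 474 bp for the same regions in E13.5 replicates 1 and 2. The E16.5 peak was the narrower one in 75.1% and 78.5% of them. In the 1788 regions open in E16.5 replicate 2 the median was 280 bp, against 458 bp and 483 bp, and the E16.5 peak was narrower in 82.6% and 86.6%. Kept regions were slightly wider in E16.5 replicate 1, at a median of 562 bp against 515 bp and 542 bp at E13.5. In replicate 2 they were narrower by less than the closing regions, at 484 bp against 526 bp and 551 bp. Over all peaks of a list, the E16.5 medians (410 and 403 bp) were slightly above those at E13.5 (390 and 397 bp), so the lists as a whole did not narrow. The closing regions had to have a peak in both E13.5 lists and none at E18.5, and the kept regions a peak at both stages. The part of this choice in the widths at E16.5 was not tested.

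The state at E16.5 also divided the early shared regions by what followed at E18.5. For this the E18.5 lists were left free, and the 28099 early shared regions closed in all P1 and P5 lists were taken. Of the 7644 that were closed in both E16.5 lists, 81.5% were closed in both E18.5 lists, against 38.1% of all 28099. Of the 13412 open in both E16.5 lists, 8.78% were. For regions at or below the median early peak width the shares were 84.0% and 10.1%, and for wider ones 76.7% and 7.90%. Most regions absent at E16.5 were thus absent at E18.5 as well, and 18.5% were open in at least 1 E18.5 list.

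In upper-layer neurons P1 is the corresponding middle stage. When the P1 lists were left free, 11951 regions met the rule, and 10694 of them (89.5%) were closed in both P1 lists. No share of all regions closed in both P1 lists stands beside this value. P1 replicate 1 was open in 4.72% of the 11951, and P1 replicate 3 in 7.16%. These shares were below those of all regions in the same lists (21.9% and 22.8%). In each list of P1, the first stage after E17.5, these regions were thus open less often than all regions. In deep-layer neurons both lists of the middle stage were closed for 58.2% of the closing regions (72.5% of all regions). For the regions chosen without E18.5 replicate 2 that share was 42.3%. The intervals between stages differ between the populations, birth lies within the upper-layer one, and the likeness of replicates differs. A difference in timing between the populations was therefore not tested. Regions that kept a peak at E16.5 kept one at P1 somewhat more often. At least 1 P1 list was open in 9.19% of the 6858 regions closed in both E16.5 lists, in 11.0% of the 3693 open in 1, and in 15.9% of the 1400 open in both. At or below the median early peak width the values were 7.44%, 8.59% and 11.0%, and above it 11.5%, 12.8% and 18.2%.

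Few regions reopened. When the P5 lists were left free instead, 11669 regions met the rule and 111 of them were open in both P5 lists. No share of all regions open in both P5 lists stands beside this count. P5 replicate 1 was open in 4.52% and replicate 2 in 4.79%, against 25.1% and 20.3% of all regions. These shares were as low as those at P1. They did not follow the E16.5 state in order: at least 1 P5 list was open in 8.43%, 7.59% and 10.1% of the regions open in 0, 1 and 2 E16.5 lists.

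The loss in one population went with the loss in the other, as the rule asked, and the following values describe the choice. Of all regions, 5.65% had peaks in both E13.5 lists and neither E18.5 list, and 11.3% had peaks in both E17.5 lists and none in P1 or P5 lists. Of the early shared regions, 13722 (19.8%) were closed in both E18.5 lists and 28099 (40.6%) in all P1 and P5 lists. The 10694 closing regions were 77.9% of the former and 38.1% of the latter. Most shared early regions that closed in deep-layer neurons before birth were therefore closed in upper-layer neurons after birth, while 61.9% of those closed in upper-layer neurons were still open in at least 1 E18.5 list. The latter share rested on E18.5 replicate 2, which was open in 60.1% of the 28099, where replicate 1 was open in 39.0%. Of the early shared regions open in both E18.5 lists, 23.6% were closed in all P1 and P5 lists. At early peak widths under 300 bp the share closed after birth was 86.4% for regions closed in both E18.5 lists and 47.6% for regions open in both. At 700 bp and over it was 70.5% and 14.0%. At each width the order was the same, with regions open in 1 E18.5 list in between.

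**Figure D4:**
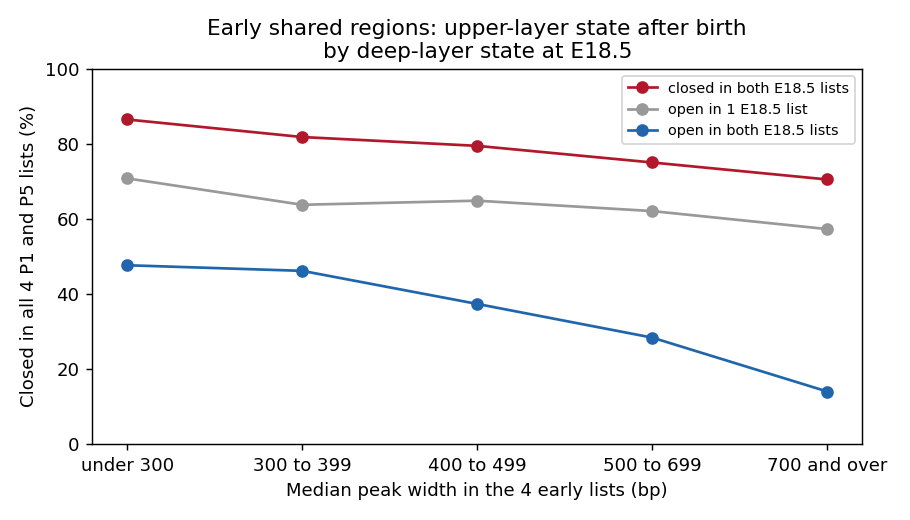
Share of early shared regions closed in all 4 P1 and P5 lists (y axis, percent) by median peak width in the 4 early lists (x axis, bp), for regions closed in both E18.5 lists (red), open in 1 (grey) and open in both (blue). The red line falls from 86.4% to 70.5% and the blue line from 47.6% to 14.0%, and the 3 lines do not cross.

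Early peak width was closely tied to closing itself. In the tenth of early shared regions with the narrowest early peaks (201 to 369.5 bp), 38.0% were closing regions. The share fell at each step to 0.955% in the tenth with the widest (1144 to 5680 bp). A narrow peak lies nearer to the limit at which a peak is listed at all, and the part of this in the closing was not tested.

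Within the closing regions, upper-layer peaks were the wider ones on average. The median peak width was 402.5 and 428 bp in E13.5 replicates 1 and 2, and 541 and 446 bp in E17.5 replicates 1 and 2. Both E17.5 values were above both E13.5 values, by 78.25 bp on average (493.5 ± 67.2 against 415.2 ± 18.03 bp, SD, n = 2 each; p = 0.333, exact permutation test, two-sided, the smallest p that 2 lists against 2 allow). The early shared regions as a whole showed a larger difference in the same direction, 698.5 ± 77.1 against 543 ± 36.8 bp (SD, n = 2 each). Without E17.5 replicate 1, the longest list, the difference in the regions then chosen was 15 bp.

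The peaks of the populations overlapped in part, less than those of replicates. The E17.5 lists carry the same library name and may not be independent replicates. By each measure below, the gap to the E13.5 replicates was the smaller one. The Jaccard index in base pairs (length shared by the peaks of a pair of lists, over the length covered by either) was 0.578 to 0.609 between an E13.5 and an E17.5 list within the closing regions. It was 0.651 between the E13.5 replicates and 0.739 between the E17.5 replicates. The midpoints of the widest peaks of an E13.5 and an E17.5 list were a median of 52 to 59.5 bp apart, against 50.5 bp between the E13.5 replicates and 37 bp between the E17.5 replicates. In 68.5% to 73.2% of the regions they were within 100 bp of each other, against 74.7% for the E13.5 replicates and 83.0% for the E17.5 replicates. Early shared regions as a whole had an index of 0.639 to 0.682 between populations, and their midpoints were a median of 58 to 64.5 bp apart.

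The rule left no late peak on a closing region, so the nearness of late peaks partly describes the choice. No share over all regions stands beside the following values. A peak of E18.5 replicate 1 lay within 1 kb of 6.18% of the closing regions, and one of E18.5 replicate 2 within 1 kb of 11.3%. For the P1 and P5 lists the shares were 4.70% to 6.56%. The kept regions, also closed after birth, had a P1 or P5 peak within 1 kb in 5.93% to 7.89%. For the regions closing in deep-layer neurons alone the shares were 6.49% and 11.0% for E18.5 replicates 1 and 2. For P1 and P5 lists they were 5.42% to 6.69%, so the closing regions were close to this set. The median distance from a closing region to the nearest region open in all 12 lists was 98.8 kb, against 82.2 kb for the kept regions and 99.5 kb for the regions closing in deep-layer neurons alone.

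Individual regions show the range of these patterns. Those named here had the widest early peaks, by the median over the 4 early lists, and positions are on mm9, counted from 1. The region at chr3:70486870-70488638 had peaks of 1745 and 975 bp in E13.5 replicates 1 and 2 and of 1733 and 1535 bp in E17.5 replicates 1 and 2. It had no peak in either E16.5 list. At chr6:80054656-80056256 the widths were 1296 and 1029 bp at E13.5 and 1564 and 1592 bp at E17.5, again with none at E16.5. The region at chr10:63618786-63620366 had widths of 1083 and 1409 bp at E13.5 and of 1361 and 1465 bp at E17.5. It too was closed in both E16.5 lists, as were chr11:33979357-33980870 and chr14:115480116-115481740. These 5 were the widest of the 6228 regions without an E16.5 peak. Their E13.5 peaks were 975 to 1745 bp wide, where the medians of the closing regions were 402.5 and 428 bp. The E13.5 widths were part of the choice, so this difference is no finding.

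Other wide regions were still in both E16.5 lists. At chr13:77628597-77630751 the peaks spanned 772 and 1225 bp at E13.5 and 405 and 593 bp in E16.5 replicates 1 and 2, with 2023 and 2004 bp in the E17.5 lists. At chr17:63520644-63522680 the widths fell from 629 and 1210 bp at E13.5 to 200 and 382 bp at E16.5, while the E17.5 peaks were 1556 and 1767 bp wide. The region at chr15:71788112-71789605 had 690 and 1350 bp at E13.5, 1132 and 283 bp at E16.5, and 1494 and 1393 bp at E17.5. There the E16.5 lists disagreed by more than the E13.5 lists did, and replicate 1 had a wider peak at E16.5 than at E13.5. In each of the 3, the E17.5 peaks of upper-layer neurons were wider than the E13.5 peaks of deep-layer neurons.

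Some of the named regions were far wider in upper-layer neurons, and how many of all closing regions were so was not counted. The region at chr13:98178318-98181139, the longest closing region named here at 2822 bp, had E17.5 peaks of 2806 and 2785 bp but E13.5 peaks of 320 and 492 bp, and E16.5 peaks of 324 and 256 bp. At chr4:82281718-82283903 the E17.5 peaks were 2067 and 2161 bp wide and the E13.5 peaks 482 and 509 bp, with 310 and 329 bp at E16.5. Another 3 of the 10 widest regions had an E16.5 peak in replicate 1 only: chr1:143613544-143615192 with 200 bp, chr8:98800402-98802190 with 253 bp and chr4:73177331-73178941 with 703 bp. Their E13.5 peaks were 927 to 1441 bp wide.

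Closing regions were found on every autosome and on chromosome X, from 209 on chromosome 19 to 827 on chromosome 1, and 8 lay on other sequences. Their share among the early shared regions was 20.1% on chromosome 16 (95% Wilson interval 18.7% to 21.7%), 12.1% on chromosome 7 (11.1% to 13.3%) and 11.9% on chromosome 19 (10.4% to 13.5%). On the other 17 chromosomes it was 14.1% to 17.5%. The mix of peak widths on a chromosome, combined with the genome-wide share per width bin, would give 15.1% to 16.01% on each chromosome. The values of chromosomes 16, 7 and 19 were thus not matched by their widths. These chromosomes are named because their shares were the extremes. The intervals cover counting error alone and treat regions as independent, although closing regions lay beside each other more often than their overall share (below). Chromosome 16 stayed above the overall share and chromosomes 7 and 19 below it when each list was cut to the same number of its widest peaks (17.4%, 9.41% and 9.45%, against 12.4% overall). They did so when lists were thinned at random to a common length (22.1%, 10.9% and 12.4%, against 16.6% overall), and without E18.5 replicate 2 (30.3%, 18.8% and 19.99%, against 24.7% overall).

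**Figure D5:**
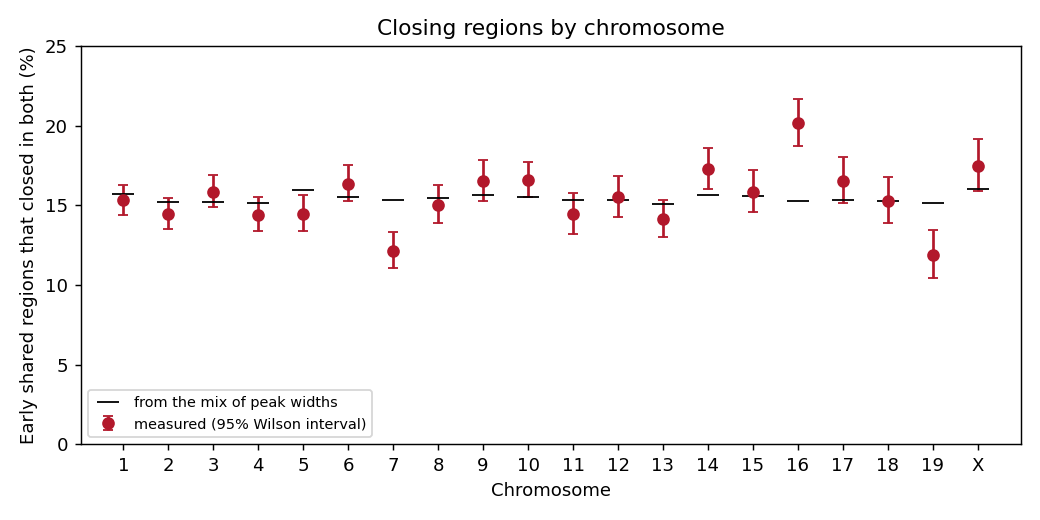
Share of early shared regions that were closing regions (y axis, percent) on each chromosome (x axis); red points are measured shares with 95% Wilson intervals, black dashes the share that the mix of early peak widths on the chromosome would give. Chromosome 16 lies above its dash, at 20.1%, and chromosomes 7 and 19 lie below, at 12.1% and 11.9%. The intervals cover counting error alone and treat regions as independent.

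On chromosome X the E16.5 lists differed more than elsewhere. E16.5 replicate 1 was open in 37.1% of the 361 closing regions there, within the 29.3% to 41.2% of the autosomes. E16.5 replicate 2 was open in 8.86%, below the 14.3% to 19.2% of every autosome. Early shared regions on X were likewise open in 67.9% in replicate 2, against 73.0% on autosomes, and in 84.1% in replicate 1, against 81.0%. Upper-layer lists after birth were also open in fewer early shared regions on X than on autosomes, for example 25.6% against 37.3% in P1 replicate 1.

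Closing regions lay beside each other more often than their overall share. When an early shared region was a closing region, the next one along the chromosome was a closing region in 22.9%, against 14.1% after any other early shared region. The share was the higher one after a closing region on 20 of 20 chromosomes. It was so for neighbours under 5 kb apart (22.6% against 13.5%) and for those 100 kb and over apart (28.4% against 19.4%). It was so in each bin of the neighbour's own peak width too, for example 24.2% against 14.5% for early peaks of 500 bp to under 700 bp. The difference of 8.77 points was 14.5 points without E18.5 replicate 2, and 8.46 to 9.90 points without each of the other lists of the rule.

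Closing regions were 15.4% of the early shared regions, and most of them nonetheless stood alone. No closing region lay next to 6488 of them among the early shared regions, and 2600 formed 1300 pairs. The counts that the overall share alone would give were not computed. The longest unbroken series held 11 closing regions over 626 kb, from 96329074 to 96955537 on chromosome 6. Of these 11, 3 were closed in both E16.5 lists and 4 were open in both. Series of 7 lay on chromosome X (40528866 to 40705541), chromosome 4 (76148388 to 76450012, and 91731166 to 92413394) and chromosome 11 (37346152 to 37719040). In the last of these, 6 of the 7 regions were closed in both E16.5 lists. These series were singled out after their values had been seen.

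The 1 Mb window with the most closing regions was the one from 81000001 to 82000000 on chromosome 17, with 22 of its 52 early shared regions (42.3%), of which 15 were closed in both E16.5 lists. The window from 99000001 to 100000000 on chromosome 7 followed with 18 of 55. Windows with 17 closing regions lay on chromosome 16 from 74000001 to 75000000 (of 40) and from 88000001 to 89000000 (of 38), and on chromosome 4 from 76000001 to 77000000 (of 28). A closing region was present in 2286 of the 2541 windows with an early shared region, with a median of 4 per window. Among the 1779 windows with at least 20 early shared regions, the median share was 13.04%, and the highest was 75% (15 of 20) from 96000001 to 97000000 on chromosome 6. In 95 of the 1779 windows no region closed, among them chromosome 7 from 52000001 to 53000000, where all 54 early shared regions kept a peak in at least 1 late list.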

How the data were processed

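The data were 12 ATAC-seq peak lists, 1 per sample and not pooled. The authors deposited positions alone (chromosome, start, end and peak name), with no score, signal or read total. MACS2 2.1.0, Picard 1.14.0, Bowtie2 and cutadapt are listed, with build mm9, per the submitters' processing notes. Peak thresholds and any read shift were not given in the sources used here. No genome or annotation of mm9 was used, and the gene, promoter, motif and marker results that had been planned are not analysed here.

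Merging, open states, widths and distances were computed with Python 3.11.15, numpy 2.4.6 and pandas 2.3.3, overlaps with bedtools 2.31.1 and Wilson intervals with scipy 1.17.1. Width is that of the widest peak of a list in a region. Single values were compared by exact permutation over lists. The scripts were tested on simulated data. Figures were drawn with matplotlib 3.10.9. Named regions were the 10 widest closing regions, the 5 widest with a peak in both E16.5 lists, the 5 widest with none, and the fullest 1 Mb windows. The region rule and all sets were chosen with earlier results of these data known. P-values measure the spread between lists, which may be technical. Alternatives were a cover of 0.5 of the region, 500 bp windows around midpoints, the widest peaks or random thinning to 96452 peaks per list, autosomes only, each list left out, and P1 or P5 left free. Width bins, thinned chromosome shares, and neighbour and kept-region comparisons under these settings were chosen after seeing the data.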

Additional observations from a re-analysis of the deposited data

How the results depend on the processing

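The number of closing regions depended on list length and on E18.5 replicate 2. It was 9559 with 0.5 of the region covered (5579 of the 10694 remained), 10636 with 500 bp windows and 10325 on autosomes. It was 6206 when each list was cut to the same number of its widest peaks. It was 2718 when lists were thinned at random, which also lowers the agreement between lists. Leaving out 1 list of the rule gave 11095 to 17127 regions, the last without E18.5 replicate 2. The share open in E16.5 replicate 1 was then 30.4% to 52.0% and that in replicate 2 was 14.4% to 30.9%, the highest of both again without E18.5 replicate 2. Under the other settings the shares were 26.9% to 36.6% and 10.9% to 25.3%. The kept regions exceeded the closing regions at E16.5 by 65.2 points on average, and by 48.2 to 68.4 points over all 17 alternatives. The upper-layer minus deep-layer width difference in closing regions was 78.25 bp, also with the replicate block (p = 0.5, exact permutation within replicate number, the smallest possible), 74 bp by covered length, and 15 to 107.5 bp with a list left out. The held-out difference was 62.2 to 76.5 points. E16.5 and E18.5 had 2 lists each, so no per-region test was made, and the depth in reads is unknown.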
